A study of Mus musculus with 4 samples.

Results

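The ribosomal protein paralogs are 7 mouse genes, Rpl10l, Rpl39l, Rpl3l, Rpl22l1, Rpl7l1, Rps27l and Rpl36al, each a relative of a core gene of the cytosolic ribosome. They were chosen by symbol, and all 7 were found among the 36088 genes measured. Their 7 parent genes, Rpl10, Rpl39, Rpl3, Rpl22, Rpl7, Rps27 and Rpl36a, were read alongside them. RNA was sequenced from wild-type male germ cells that had been sorted from fetal testes kept in culture. The culture received either CBR-5884, which the labels call an inhibitor of serine metabolism, or its solvent DMSO, and the question was what serine metabolism does for the differentiation of these cells. Each condition has 2 libraries, named biological replicates in the design text, and the titles give day 14. The labels used here leave unsaid the dose of CBR-5884, how long it was given, the fetal stage at the start and the marker used for the sort.

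The ribosome is built of RNA and a fixed set of proteins, and in mammals nearly all of these proteins are made from a single active gene. A few of the genes have a relative that can stand in for them in some tissues. Rpl10 and Rpl39 lie on the X chromosome, which is silenced in spermatocytes at meiosis, and their autosomal relatives Rpl10l and Rpl39l are known from the male germline, where Rpl10l is needed for meiosis and Rpl39l for normal sperm. Rpl36al is an autosomal relative of the X-linked Rpl36a that is active in many tissues. Rpl3l is known as the heart and skeletal muscle form of Rpl3. Rpl22l1 is held down by Rpl22 and takes its place where Rpl22 is missing. Rps27l is a target of the tumour suppressor p53, and Rpl7l1 is known from precursors of the large ribosomal subunit.

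Libraries are called by condition and by the number, 2 or 4, in their names in the table. Those numbers do not match the replicate numbers of the labels, so which labelled replicate a library is cannot be told. The estimated depth was 22400000 to 28200000 reads per library. Levels are given in TPM, a share of all transcripts that is scaled for transcript length, so that levels of different genes can be compared. The 8 germ cell markers, Dazl and Ddx4 among them, summed to 2628 to 2771 TPM per library, and all 7 Sertoli cell markers were detected, with a sum of 164, 80.3, 144 and 116 TPM in DMSO library 2, DMSO library 4, CBR-5884 library 2 and CBR-5884 library 4. In bulk RNA, fewer cells of a type and less RNA per cell cannot be told apart.

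The coding sequences of each paralog and its parent were compared, since the assignment of reads to one or the other rests on where they differ. The germline pairs are shown here. The first 180 bases of the Rpl10l and Rpl10 coding sequences, read from GENCODE M21 transcripts, hold 30 differing bases, printed in capitals.
Rpl10l: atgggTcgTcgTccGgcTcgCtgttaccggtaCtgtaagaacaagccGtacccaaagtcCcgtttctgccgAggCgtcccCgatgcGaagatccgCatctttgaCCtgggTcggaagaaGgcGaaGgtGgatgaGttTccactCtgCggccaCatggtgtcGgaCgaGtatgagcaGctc
Rpl10: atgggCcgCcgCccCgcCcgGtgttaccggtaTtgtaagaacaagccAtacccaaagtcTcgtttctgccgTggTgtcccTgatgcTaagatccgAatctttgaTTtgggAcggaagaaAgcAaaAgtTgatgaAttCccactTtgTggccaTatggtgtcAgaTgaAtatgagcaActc
Over their whole coding sequences of 645 bases, Rpl10l and Rpl10 shared 84.8% of bases, and 89 of the 98 differences (90.8%) fell on the last base of a codon. The complete coding sequences of Rpl39l and Rpl39, 156 bases each, differed at 23 positions, also in capitals.
Rpl39l: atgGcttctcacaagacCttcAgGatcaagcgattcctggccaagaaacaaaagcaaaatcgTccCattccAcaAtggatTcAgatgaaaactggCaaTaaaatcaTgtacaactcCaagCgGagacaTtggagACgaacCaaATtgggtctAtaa
Rpl39: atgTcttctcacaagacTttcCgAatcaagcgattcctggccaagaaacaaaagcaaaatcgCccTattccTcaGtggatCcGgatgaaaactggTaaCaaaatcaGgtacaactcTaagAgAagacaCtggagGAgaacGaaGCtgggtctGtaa
Of those 23 differences 16 were on the last base of a codon. The longest stretch without a difference was 23 bases for Rpl10l and 38 bases for Rpl39l.

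These differences were enough to tell the members from their parents. With words of 31 bases, the default length with which kallisto matches reads, 0.0% of the words of Rpl10l, Rpl3l, Rpl22l1, Rpl7l1, Rps27l and Rpl36al occurred in the parent gene, and 1.0% (8 words) of those of Rpl39l did. Coding identity over aligned bases was 87.9% for Rpl36al and Rpl36a, 76.1% for Rps27l and Rps27, and 74.1% for Rpl3l and Rpl3. It was 70.2% for Rpl22l1 and Rpl22, and 57.9% for Rpl7l1 and Rpl7. Gapped positions were left out, which were 16 in the Rpl3l pair, 18 in the Rpl22l1 pair and 82 in the Rpl7l1 pair. Last bases of codons held 89.7% of the differences in the Rpl36al pair and 86.9% in the Rps27l pair, but 43.9% in the Rpl7l1 pair. Words shared with any other gene of the table made up 35.6% of the words of Rpl3, 32.2% of Rpl10, 27.6% of Rps27, 25.9% of Rpl36a, 25.8% of Rpl7, 9.9% of Rpl39 and 6.8% of Rpl22. Among the members the share was 0.0% for Rpl3l, 2.1% for Rpl39l, 15.5% for Rpl22l1, 15.8% for Rpl7l1, 16.1% for Rps27l and 23.4% for Rpl10l and Rpl36al. It was lower in the paralog than in its parent in 6 pairs and higher in the Rpl22l1 pair. The 1 gene that shares words with Rpl10l, Gm14460, was at 0.09 to 0.60 TPM.

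In the mouse genome (GRCm38, also called mm10) Rpl10l lies on chromosome 12 from 66283379 to 66284401 on the minus strand and has 1 exon, whereas Rpl10 on chromosome X (74270812 to 74273135) has 6. Rpl36al, on chromosome 12 from 69182731 to 69184083, also has 1 exon in its principal transcript, against 5 for Rpl36a on chromosome X (134585654 to 134588062). Its exons overlap those of Gm49383, a protein-coding gene model on the same strand that holds 55.7 to 58.7 TPM. Rpl39l, on chromosome 16 from 10170226 to 10174911, has 3 exons, as has Rpl39 on chromosome X (37082520 to 37085402). Rpl3l (chromosome 17, 24727820 to 24736143) has 10, Rpl22l1 (chromosome 3, 28805436 to 28807424) and Rps27l (chromosome 9, 66946086 to 66949516) have 4, and Rpl7l1 (chromosome 17, 46773907 to 46782672) has 7. The exons of Rpl22l1 overlap those of Gm33051, an antisense gene. Whether strand was used is unsaid in the labels, so reads of the 2 genes cannot be told apart there.

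Both germline paralogs were abundant in these cells, and neither differed between the conditions by more than the spread between libraries. Rpl10l had 263 TPM in DMSO library 2, 195 in DMSO library 4, 269.6 in CBR-5884 library 2 and 215 in CBR-5884 library 4. The groups overlapped, and in each condition library 2 was the higher. Rpl39l, Rpl7l1 and the Sertoli marker sum had the same order, and the other members did not. The part of Sertoli cell RNA in these levels was not tested. Estimated reads for Rpl10l, a gene with a single transcript in the table, were 3608 to 6262 per library. The log2 fold change, CBR-5884 against DMSO and on the log2(TPM + 1) scale as all single-gene fold changes here, was 0.09 (SE 0.17, 95% interval −0.33 to 0.50; limma adjusted p = 0.998). The sign turned when DMSO library 4 was left out (−0.13) or CBR-5884 library 2 (−0.07). Rpl10 had 371 and 409.7 TPM with DMSO and 356 and 342 TPM with CBR-5884. It lay lower in both CBR-5884 libraries, with a log2 fold change of −0.16 (95% interval −0.36 to 0.04).

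Rpl10l held 41.5 and 32.2% of the summed TPM of the pair with DMSO, against 43.1 and 38.7% with CBR-5884. It was below Rpl10 in all 4 libraries. The log2 ratio of Rpl10l to Rpl10 was 0.25 higher with CBR-5884 (SE 0.32; exact permutation test over libraries, two-sided, p = 0.67, where 0.33 is the smallest p that 2 against 2 libraries allow). Without DMSO library 4, the library with the lowest share, that difference was −0.04. It was 0.075 when the named pseudogenes of Rpl10 were added to it and 0.081 with near-copies. The value for Rpl10 is uncertain, since it shares words with copies that were also given reads. A near-copy is here a gene with at least 50% of its 31-base words in the gene named. Rpl10 had 9, of which Rpl10-ps3 held 71.0 to 126 TPM and Rpl10-ps1 27.8 to 75.1 TPM. With them, Rpl10 summed to 524, 517, 530.2 and 517 TPM, a narrower range than that of Rpl10 alone, and the share of Rpl10l became 33.5, 27.4, 33.7 and 29.4%, in the order DMSO libraries 2 and 4, CBR-5884 libraries 2 and 4.

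Rpl39l had 311 TPM in DMSO library 2, 282 in DMSO library 4, 341 in CBR-5884 library 2 and 275 in CBR-5884 library 4. The CBR-5884 libraries were the highest and the lowest of the 4, so the groups overlapped (log2 fold change 0.05, SE 0.12, 95% interval −0.24 to 0.34; limma adjusted p = 0.998). Rpl39 had 227 and 206 TPM with DMSO and 225 and 216 TPM with CBR-5884. Rpl39l exceeded its X-linked parent in each library and held 57.8, 57.8, 60.2 and 56.0% of the pair. That order depends on the copies of Rpl39: when its 3 near-copies, of which Gm12013 held 20.97 to 83.6 TPM, were added to it, Rpl39l held 49.6, 54.8, 51.3 and 49.5%. The ratio differed between the conditions by 0.02 on the log2 scale (SE 0.13; exact permutation p = 1.0).

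Rpl36al, the other relative of an X-linked gene, was the most abundant member. It had 545 TPM in DMSO library 2, 678 in DMSO library 4, 546 in CBR-5884 library 2 and 559 in CBR-5884 library 4. DMSO library 4 stood above the other three, which lay close together (log2 fold change −0.14, SE 0.11, 95% interval −0.42 to 0.14; limma adjusted p = 0.998). Without that library the log2 fold change was 0.02. Rpl36a had 254 and 258 TPM with DMSO and 228 and 209.7 TPM with CBR-5884, groups that did not overlap, with a log2 fold change of −0.23 (SE 0.08, 95% interval −0.41 to −0.04; limma unadjusted p = 0.0258, adjusted p = 0.998).

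On these values Rpl36al held 68.2, 72.4, 70.5 and 72.7% of the pair. The parent's level is uncertain, however. Rpl36a-ps2, a near-copy with 100% of its words in Rpl36a, was given 780.03, 767, 857 and 730.2 TPM, more than Rpl36a itself in each library. With its near-copies Rpl36a summed to 1035 and 1025 TPM with DMSO and to 1085 and 939.9 TPM with CBR-5884, groups that overlapped. With near-copies on both sides (Rpl36a-ps3, at 57.7 to 111 TPM, counts to Rpl36al), Rpl36al held 36.9, 41.8, 37.7 and 40.6%. The log2 ratio differed by 0.09 between the conditions without the copies (SE 0.17; exact permutation p = 0.67) and by −0.011 with them.

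**Figure D1:**
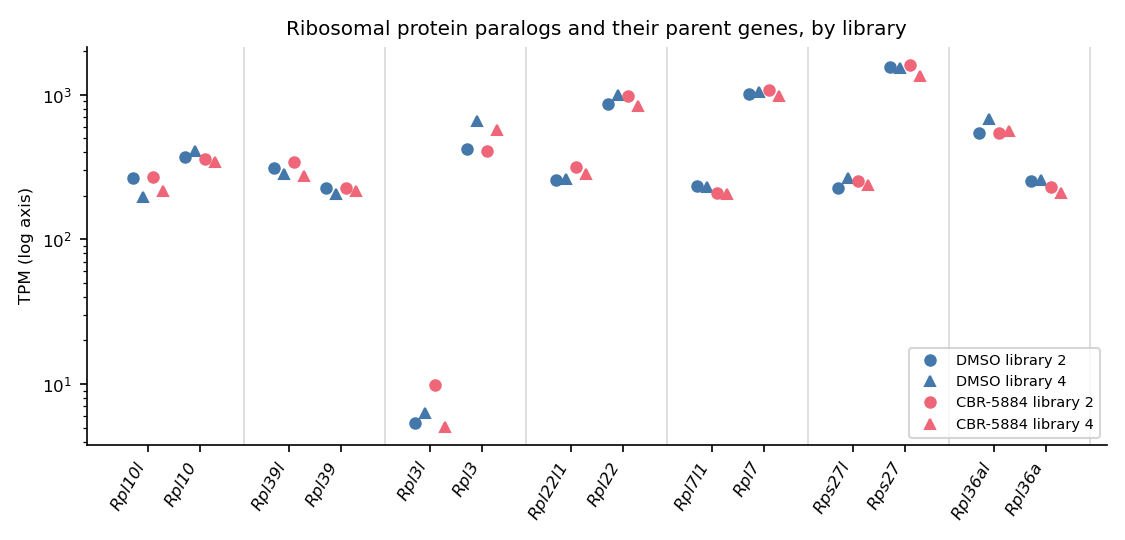
TPM (log axis) of each paralog and, to its right, its parent gene in the 4 libraries; colours are the conditions, circles are the libraries numbered 2 and triangles those numbered 4. Near-copies are left out. On these values Rpl39l and Rpl36al lie above their parents in all 4 libraries, the other 5 below, and Rpl3l stands apart at 5.06 to 9.87 TPM.

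Rpl22l1 was the 1 member with an unadjusted p under 0.05. It had 256 TPM in DMSO library 2, 261 in DMSO library 4, 318 in CBR-5884 library 2 and 282 in CBR-5884 library 4. Both CBR-5884 libraries lay above both DMSO libraries, with a log2 fold change of 0.21 (SE 0.08, 95% interval 0.01 to 0.42; limma unadjusted p = 0.0459). Over all genes tested this did not pass (limma adjusted p = 0.998). The unadjusted p in limma was 0.0579 with no filter on low genes, where that of Rpl7l1 was 0.0446, and 0.0648 on the scaled reads per base. Leaving out single libraries gave fold changes of 0.13 to 0.30, with an unadjusted p of 0.0234 in limma without CBR-5884 library 4 and of 0.11 to 0.228 without any of the other three. Rpl22, which is known to hold Rpl22l1 down, had 864 and 992 TPM with DMSO and 973 and 835 TPM with CBR-5884, groups that overlapped (log2 fold change −0.04, 95% interval −0.31 to 0.23). Rpl22l1 held 22.8 and 20.9% of the pair with DMSO and 24.6 and 25.3% with CBR-5884. The log2 ratio was 0.25 higher with CBR-5884 (SE 0.09; exact permutation p = 0.33, the smallest possible here). It was 0.24 higher when the near-copy Gm15421, at up to 39.1 TPM, was added to Rpl22l1.

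Rpl7l1 was the other member whose groups did not overlap, in the opposite direction. It had 232 and 229 TPM with DMSO, against 208 and 206 TPM with CBR-5884. The 2 libraries of each condition lay close together, and the log2 fold change was −0.16 (SE 0.07, 95% interval −0.32 to 0.01; limma unadjusted p = 0.0646, adjusted p = 0.998). It lay between −0.16 and −0.15 when any single library was left out. Rpl7 had 1013 and 1049 TPM with DMSO and 1082 and 970.5 TPM with CBR-5884, which overlapped. Rpl7l1 held 18.6 and 17.9% of the pair with DMSO and 16.1 and 17.5% with CBR-5884, a log2 ratio 0.15 lower with CBR-5884 (difference −0.15, SE 0.08; exact permutation p = 0.33). Of the words of Rpl7l1, 15.8% occur in 1 or more of 1695 other genes, with the largest part, 8.6%, in Gm11222, which was at 4.65 to 6.09 TPM.

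Rps27l had 227 TPM in DMSO library 2, 266 in DMSO library 4, 254 in CBR-5884 library 2 and 236 in CBR-5884 library 4. The DMSO libraries were the lowest and the highest, and the log2 fold change was −0.01 (SE 0.10, 95% interval −0.25 to 0.23; limma adjusted p = 0.998). With library totals made equal it was 0.02. Rps27 was the most abundant of all 14 genes, with 1556 and 1528 TPM with DMSO and 1598 and 1346 TPM with CBR-5884, and Rps27l held 12.7, 14.8, 13.7 and 14.9% of the pair. Of 22 other genes known as p53 targets, 20 were tested, of which 9 lay higher and 11 lower with CBR-5884 (median log2 fold change −0.03), with 0 at an unadjusted p under 0.05 in limma. Their fold changes ran from −0.27 for Eda2r to 0.43 for Polk. The groups did not overlap for 5 of the 20 lower and 0 higher, beside 17.7% and 13.6% of all genes. Cdkn1a, the p53 target that stops the cell cycle, had 17.7 and 14.1 TPM with DMSO and 10.5 and 16.0 TPM with CBR-5884.

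Rpl3l was the 1 scarce member. It had 5.41 TPM in DMSO library 2, 6.31 in DMSO library 4, 9.87 in CBR-5884 library 2 and 5.06 in CBR-5884 library 4. CBR-5884 library 2 stood above the other three, which gave a log2 fold change of 0.25 with a wide interval (−0.51 to 1.0; limma adjusted p = 0.998). Without CBR-5884 library 2 it was −0.17. About 109 to 232 estimated reads per library lay behind these values, and Rpl3l shares 0.0% of its words with any other gene of the table. Of 7 striated muscle markers, Myl1 was listed at 0 in all 4 libraries and Tnnt2 was under 0.5 TPM, while Myh6 had 9.81 to 10.9 TPM; their sum was 18.9 to 20.8 TPM. In CBR-5884 library 2, where Rpl3l was highest, the muscle sum was 19.6 TPM; Myh7 was at its highest there (5.16 TPM), and Ttn (3.27 TPM) and Ckm (0.27 TPM) were at their lowest. The part of muscle RNA in the level of Rpl3l was not tested.

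The parent Rpl3 was the most variable of the 14 genes after Rpl3l, with a 1.61-fold range. It had 420.2 and 656 TPM with DMSO and 406 and 571 TPM with CBR-5884, higher in library 4 of both conditions. Its near-copy Rpl3-ps1 went the other way, with 689 and 475 TPM with DMSO and 736 and 472 TPM with CBR-5884. With its 4 near-copies Rpl3 summed to 1111, 1131, 1143 and 1044 TPM, so the split between Rpl3 and Rpl3-ps1 differed between libraries far more than the total. Of the words of Rpl3-ps1, 94.7% occur in Rpl3. Against Rpl3 alone Rpl3l held 0.88 to 2.37% of the pair, and against Rpl3 with its copies 0.48 to 0.86%.

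**Figure D2:**
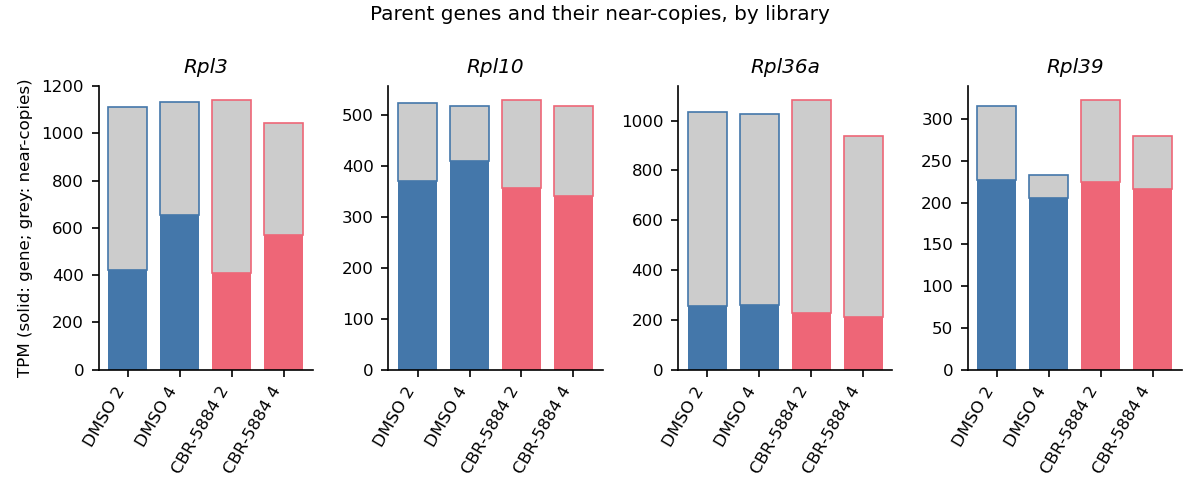
TPM of 4 parent genes (solid) with the TPM of their near-copies stacked on top (grey), in each library; bars start at 0 and each panel has its own scale. For Rpl3 and Rpl10 the solid part differs between libraries while the total differs less, for Rpl36a the grey part is the larger in all 4 libraries, and for Rpl39 the grey part is smallest in DMSO library 4.

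**Figure D3:**
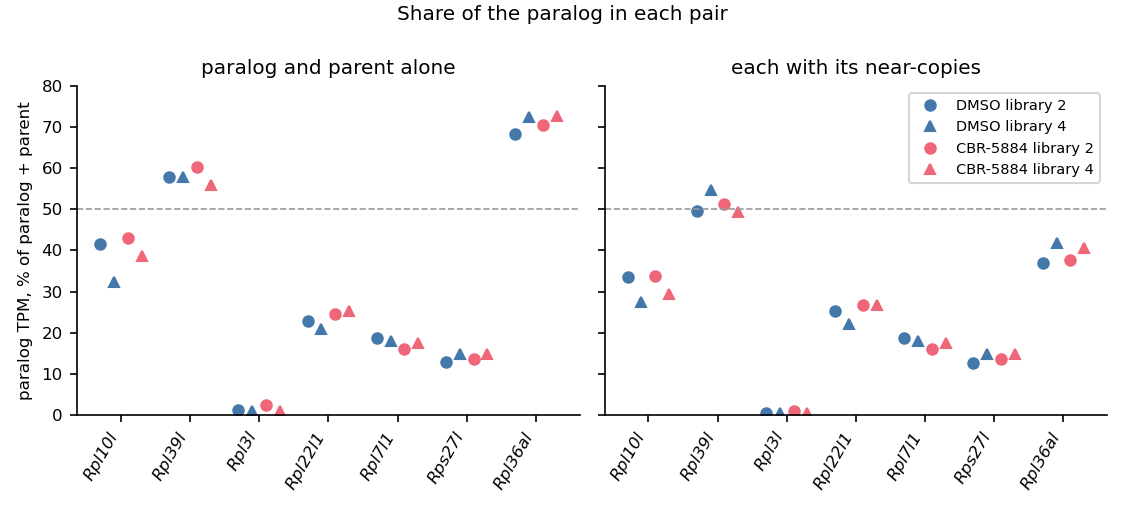
Paralog TPM as a percent of paralog plus parent, for each pair and library, with both genes alone (left) and with each gene's near-copies added (right); the dashed line is 50%. Rpl36al moves from 68.2 to 72.7% on the left to 36.9 to 41.8% on the right, and Rpl39l from above the line in all 4 libraries to both sides of it.

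Across the set, 0 of 7 members and 0 of 7 parents passed an adjusted p under 0.05 in limma, as did 0% of the 14920 genes tested. At an unadjusted p under 0.05 there were 1 of 7 members (Rpl22l1, higher) and 1 of 7 parents (Rpl36a, lower), beside 3.66% of all genes (1.51% higher and 2.15% lower). The groups did not overlap for 2 of 7 members and 2 of 7 parents (Rpl10 and Rpl36a, both lower), beside 31.3% of all genes, so these shares are close to the background. With near-copies added to Rpl10 and to Rpl36a, the groups of both parents overlapped. Of the members 4 lay higher and 3 lower with CBR-5884 (median log2 fold change 0.05), but 1 higher and 6 lower without CBR-5884 library 2 (median −0.11). Of the parents 1 lay higher and 6 lower (median −0.07), but 4 higher and 3 lower without CBR-5884 library 4 (median 0.05). The median over all genes was −0.01.

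**Figure D4:**
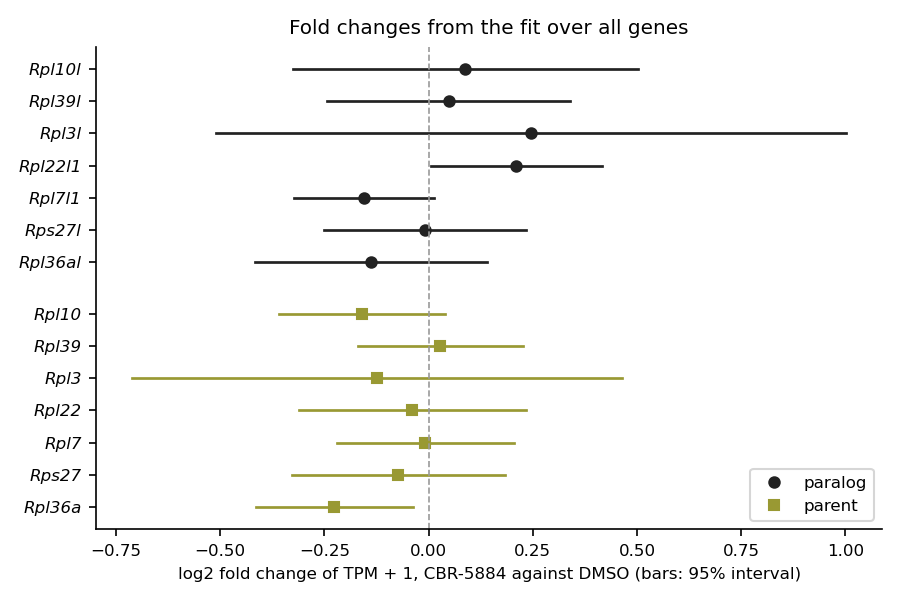
Log2 fold change of TPM + 1, CBR-5884 against DMSO, for the 7 paralogs (circles) and 7 parents (squares), with the 95% interval from limma's moderated variance. The intervals of Rpl22l1 and Rpl36a leave out 0, on opposite sides, and those of the other 12 genes hold it. Near-copies are not included.

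Core ribosomal protein genes and assembly factors were read beside them. Of 79 core ribosomal protein genes, 12 lay higher and 67 lower with CBR-5884, with a median log2 fold change of −0.07 and 0 past the threshold in limma; 1, Rpl36a, had an unadjusted p under 0.05. With library totals made equal the split was 17 higher and 62 lower (median −0.04). Without CBR-5884 library 4 the split was 48 higher and 31 lower (median 0.01). Of all genes tested, 7035 lay higher and 7885 lower. The core genes of lowest and highest fold change were Rpl36a (−0.23, taken without its near-copies) and Rpl5 (0.30). Of 43 ribosome assembly factors 11 lay higher and 32 lower (median −0.07, 0 at an unadjusted p under 0.05). They ran from −0.21 for Sbds, which readies the large subunit for use, to 0.20 for Efl1, its partner GTPase. Equal totals gave 15 higher and 28 lower, and leaving out CBR-5884 library 4 gave 18 and 25. The groups did not overlap for 3 factors higher and 15 lower, and for 0 core genes higher and 13 lower. Among all genes the shares were 13.6% higher and 17.7% lower. By level, the core genes ran from 24.1 TPM (Rpl5) through a median of 935 TPM to 3355 TPM (Rpl13a). Rpl36al exceeded 22 of the 79, the other abundant members exceeded 5 to 7, and Rpl3l 0. Near-copies were not examined for core genes other than the parents, Rpl5 included. Their levels and fold changes, and the ranks that rest on them, are those of the genes alone. Of the X-linked parents, taken without their near-copies, Rpl39 exceeded 4 core genes, Rpl36a 5 and Rpl10 9. These ranks rest on how reads were split. With its near-copies Rpl36a summed to 939.9 to 1085 TPM, above the core median. Rpl10 with its near-copies summed to 516.5 to 530.2 TPM, and Rpl39 to 233.0 to 323.8 TPM.

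The order of the members by mean level was Rpl36al (582 TPM), Rpl39l (302), Rpl22l1 (279), Rps27l (246), Rpl10l (236), Rpl7l1 (219) and Rpl3l (6.66). Rpl36al lay above and Rpl3l below the rest in every library. The 5 between them spanned 195 to 341 TPM, and each neighbour in that order overlapped the next across libraries. Of all genes tested, 4.8% had a higher mean than Rpl10l and 3.4% a higher mean than Rpl39l.

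Rpl10l and Rpl39l were set beside 9 other autosomal relatives of X-linked genes that are active in male germ cells. Of these, 5 had a mean of at least 1 TPM. Rbmxl2, a splicing regulator, stood at 122 to 136 TPM and was 7.67 to 10.04 times as high as its X-linked parent Rbmx. Pdha2, a pyruvate dehydrogenase subunit, was 0.41 to 0.51 times as high as Pdha1, Utp14b, a ribosome assembly protein, 0.64 to 0.75 times as high as Utp14a, and Cstf2t, an mRNA 3′ end factor, 0.31 to 0.45 times as high as Cstf2. For Rpl10l the ratio was 0.48 to 0.76 and for Rpl39l 1.27 to 1.51, both without near-copies. With near-copies added to its parent, Rpl39l held 49.5 to 54.8% of the pair. Cetn1, a centrin, had 1.054 to 3.06 TPM, against 66.6 to 87.5 TPM for Cetn2. Exons of Utp14b overlap those of Acsl3 on the same strand. Shared words and near-copies were not examined for these 9 pairs, so their ratios are those of the genes alone. Pgk2, the sperm glycolysis enzyme, was at 0 to 0.37 TPM, Gk2, a glycerol kinase, at 0.16 to 0.79 TPM, and G6pd2 and Prps1l1 were listed at 0 in all 4 libraries. Of the 5 tested, 0 passed the adjusted threshold in limma.

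**Figure D5:**
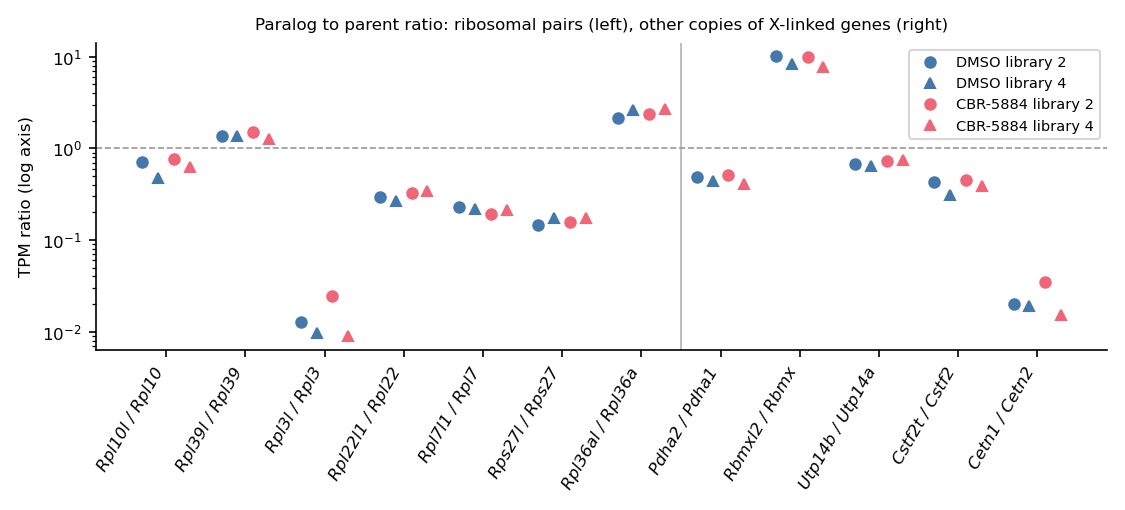
Ratio of paralog to parent TPM (log axis) in each library for the 7 ribosomal pairs (left of the line) and the 5 other copies of X-linked genes with a mean of at least 1 TPM; the dashed line marks equal levels. With each gene taken alone, Rpl39l, Rpl36al and Rbmxl2 lie above their parents in all 4 libraries, and Rpl10l at 0.48 to 0.76. With near-copies added, Rpl36al held 36.9 to 41.8% of its pair and Rpl39l 49.5 to 54.8%.

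Stage markers were read in the same libraries. Of 12 early meiotic genes 8 lay higher and 4 lower with CBR-5884 (median log2 fold change 0.09). Stra8, the meiotic entry factor, had 476 and 399 TPM with DMSO and 376 and 323 TPM with CBR-5884, groups that did not overlap (log2 fold change −0.32, SE 0.12; limma unadjusted p = 0.0338, adjusted p = 0.998). Rec8, a meiotic cohesin subunit, had 56.3 and 50.8 TPM with DMSO and 40.1 and 47.5 TPM with CBR-5884 (−0.29; limma unadjusted p = 0.0531). Sycp3, of the chromosome axis, had 189 and 162 TPM with DMSO and 196 and 192 TPM with CBR-5884 (log2 fold change 0.15). The highest fold changes of the list were those of Spo11 (0.26) and Dmc1 (0.16). The groups did not overlap for 3 early meiotic genes that lay higher and 2 that lay lower. Among all genes the shares were 13.6% higher and 17.7% lower. Of 12 pachytene genes, 4 were under 1 TPM in all 4 libraries, and the most abundant were Tbpl1 (107 to 115 TPM), Hspa2 (30.3 to 33.1 TPM) and Clgn (17.3 to 20.7 TPM). Of 12 spermatid genes, 10 were under 1 TPM in all libraries, the protamine gene Prm1 at 0.24 to 0.67 TPM among them. Rpl10l, at 195 to 269.6 TPM, and Rpl39l, at 275 to 341 TPM, were thus abundant where most spermatid genes were close to 0; which of the sorted cells hold them was not tested.

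Genes with levels most like the germline paralogs were found by the root mean square difference of log2(TPM + 1) over the 4 libraries. For Rpl10l these were Phb (0.08), Xpot (0.08) and Nxf2 (0.11), and for Rpl39l Cirbp (0.02), Atp5j2 (0.06) and Akr1b3 (0.07). Rpl22l1 was nearest to Tex19.1 (0.07), Pabpn1 (0.09) and Srsf5 (0.10), and Rpl7l1 to Cyth2, Nono and Rad23b (0.03 each). Rps27l was nearest to Mcmbp (0.07), Cenpa (0.07) and Cdc34 (0.07), Rpl36al to Gpi1 (0.07), Eef1d (0.10) and Cct3 (0.10), and Rpl3l to Wipi1 (0.02), Dtx1 (0.12) and Batf3 (0.12).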

How the data were processed

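RNA of 4 libraries, 2 per condition, was quantified with fastp, kallisto and the build mm10, per the submitters' processing notes (no versions or settings listed). The authors deposited TPM and scaled reads per base as gene-level signal values, repeated for each transcript, and a single line was kept for each gene in each library. The deposited TPM summed to 966761 to 1002976 per library. Among scaled values of up to 20.5 steps, only 35.2 to 36.2% came out whole (tolerance 0.05 of a step), and reads were not recovered; depth and reads per gene are estimates from that step.

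All 4 libraries entered limma 3.58.1 (R 4.3.3, limma-trend) on log2(TPM + 1), two-sided, without covariates, on 14920 genes whose mean TPM reached 1, with Benjamini-Hochberg adjustment over all of them. All 7 members and 7 parents passed that filter. Such fold changes understate the change of low genes. Ratios within pairs used an exact permutation test. Positions, transcripts and 31-base words come from GENCODE M21, which held 116337 of the table's 117403 transcripts and 35820 of its 36088 genes; coding sequences were aligned with Biopython 1.88, using the principal transcript.

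Members, gene lists and tests were chosen with earlier results of these data known. The genes named are the members, their parents, the copies of X-linked genes, up to 2 genes each way with the extreme fold changes of a list, and the 3 nearest genes of a member (no predicted, Rik or pseudogene names). Rpl13a, Sycp3, Clgn, Prm1, markers named for their level and the near-copies fall outside that rule and were chosen after their values were seen. The row names of the table give the condition of a library but not its labelled replicate. Alternatives covered the pseudocount (0.1), the filter (none, or a mean TPM of 5), equal totals, scaled reads, robust variances, a replicate block, named pseudogenes and single libraries. Adding near-copies was chosen after seeing the data.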

Additional observations from a re-analysis of the deposited data

How the results depend on the processing

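With limma 0 genes were called, against 1 with scaled reads, 1 with robust variance estimates and 0 in each fit that left out a library; at an unadjusted p under 0.05 there were 546, but 1079 with no filter on low values and 393 to 1034 when a library was left out (1034 without DMSO library 2). No member passed under any alternative (limma adjusted p 0.715 to 1.0). The ratio difference of Rpl10l was 0.075 with named pseudogenes and 0.081 with near-copies. With equal library totals the fold changes of Rps27l and Rpl7 were both 0.019, of opposite sign to the main value. With named pseudogenes added to the parent, the log2 ratio difference was −0.0003 for Rpl39l and −0.16 for Rpl36al. With near-copies it was −0.10 and −0.011. Rpl36a-ps3 was added to Rpl36a in the first of these settings and to Rpl36al in the second, so the values for Rpl36al differ by that choice. The log2 difference of summed Rpl10l and Rpl10 was −0.07, but 0.035 with named pseudogenes and 0.031 with near-copies. Leaving out single libraries gave fold changes of −0.13 to 0.30 for Rpl10l, −0.11 to 0.20 for Rpl39l, −0.17 to 0.67 for Rpl3l, 0.13 to 0.30 for Rpl22l1, −0.16 to −0.15 for Rpl7l1, −0.12 to 0.11 for Rps27l and −0.30 to 0.019 for Rpl36al. For parents it gave −0.042 to 0.10 for Rpl39, −0.44 to 0.20 for Rpl3, −0.15 to 0.071 for Rpl22, −0.087 to 0.07 for Rpl7 and −0.20 to 0.052 for Rps27. Ratio differences ran from −0.040 to 0.54 for Rpl10l, −0.11 to 0.15 for Rpl39l, −0.33 to 1.13 for Rpl3l, 0.17 to 0.33 for Rpl22l1, −0.22 to −0.078 for Rpl7l1, −0.064 to 0.19 for Rps27l and −0.057 to 0.24 for Rpl36al. Sum differences ran from −0.15 to 0.015 for Rpl10l, −0.062 to 0.14 for Rpl39l, −0.43 to 0.20 for Rpl3l, −0.085 to 0.12 for Rpl22l1, −0.10 to 0.033 for Rpl7l1 and −0.18 to 0.050 for Rps27l. The cause was not tested.

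Libraries with the same table number deviated together with a correlation of 0.20 over genes, but 2 pairs do not show that the numbers pair the libraries. With a replicate block on that number the fold changes were unchanged by construction and 0 genes were called. The unadjusted p under the block was 0.0386 for Rpl22l1 and 0.0646 for Rpl7l1, and 797 genes had an unadjusted p under 0.05. With 2 libraries per condition, the median half-width of a 95% interval was 0.37 on the log2 scale, so smaller differences could not be shown for most genes. That interval carries no adjustment over genes, so a difference had to be larger still to pass the adjusted threshold. The smallest adjusted p of any gene in the main limma fit was 0.0965.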
